A study of Mus musculus with 4 samples.

Results

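The measurements below concern 49 mouse genes whose products build the kinetochore, run the spindle checkpoint or divide the cell at cytokinesis. They were selected by symbol from a list of names, 49 of the 24063 gene symbols in the count tables, and for each symbol the transcript with the most counts over all libraries was used. All 49 were found, and all 49 had enough counts to be tested.

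A dividing cell must attach each pair of sister chromatids to spindle microtubules from opposite poles before it separates them. The kinetochore is the protein assembly that makes this attachment: it is built on centromeric chromatin marked by the histone variant CENP-A, with an inner layer of CENP proteins bound to DNA and an outer layer that holds microtubules. The spindle checkpoint delays anaphase while any kinetochore is unattached, the chromosomal passenger complex corrects wrong attachments, and the central spindle and the contractile ring then complete cytokinesis. Many of the genes are transcribed mainly in the G2 and M phases of the cell cycle, and their RNA is therefore often low in tissues where few cells divide. In the adult lung the endothelium is largely quiescent. Pneumonectomy (PNX), here the removal of the left lung, is followed by growth of the lobes that remain.

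RNA was sequenced from lung endothelial cells (ECs) of C57BL6 mice (named C57Bl6J in the design text), 8 weeks old and labelled male, either sham operated or 7 days after PNX. There were 2 libraries a group, with the cells of 2 mice pooled in each. The p-values here therefore rest on the spread between 2 pools a group, estimated with information shared across genes. The cells were taken with magnetic beads against CD31 (Pecam1), a surface protein of endothelium that some leukocytes and platelets also carry, and the fraction was therefore enriched rather than pure. The comparison asks how the RNA of these cells differed between post-PNX and sham-operated lungs.

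With 1 transcript per symbol the libraries held 50952879 and 45261208 counts in sham and 46783725 and 41367438 counts post-PNX. Values below are normalized counts, meaning counts scaled to the mean library size, as mean ± SD of 2 libraries, unless FPKM is named. A gene was called higher or lower when edgeR's quasi-likelihood test gave an adjusted p under 0.01 and the log2 fold change was beyond 1 in size. The lowest count of any of the 49 genes in any library was 17, above the floor of 3 counts below which a gene was treated as undetected. The labels and the counts differed on sex: no read was counted on any of the 44 genes of chromosome Y, and Xist, the RNA of the inactive X, had 36875 and 31266 counts in sham and 34389 and 29890 counts post-PNX. No library stood apart from its group in this, and what it means for the comparison was not tested. Whether genes of chromosome Y were included in the counting is not given in the sources used here.

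The identity of the cells was checked with marker lists. Pecam1 had 90946 ± 240 normalized counts in sham and 90400 ± 294 post-PNX, and Cdh5, the VE-cadherin of endothelial junctions, 110259 ± 596 and 94599 ± 898. The 12 endothelial markers summed to between 11977 and 12100 CPM (counts scaled to library totals) in sham and between 10030 and 10067 post-PNX, and 0 of 12 were called. Below the size threshold the list was nonetheless lower post-PNX, with a median log2 fold change of -0.25. Its values ran from -0.54 in Eng (adjusted p = 5.3e-38) to 0.11 in Emcn (adjusted p = 2.6e-05, edgeR), which alone lay above 0. Markers of other cells were present, and none of them was at 0 in all libraries. The 6 fibroblast markers summed to between 1269 and 1279 CPM in sham and between 4782 and 4813 post-PNX, with 5 of 6 called higher and the largest log2 fold change, 4.26, in Lum, a matrix proteoglycan. The remaining fibroblast marker, Pdgfra, was lower, with a log2 fold change of -0.23 (adjusted p = 2.4e-15, edgeR). The sum of the 8 macrophage and monocyte markers rose from between 595 and 603 to between 1216 and 1220 CPM, with 4 of 8 called higher. Mertk alone of these was lower, with a log2 fold change of -0.33 (adjusted p = 4.8e-17, edgeR). Mesothelial markers went from between 211 and 214 to between 458 and 466 CPM (4 of 5 called higher), and smooth muscle and pericyte markers from between 377 and 381 to between 490 and 492 (1 of 6 called higher). Epithelial markers were at 9862 to 9942 CPM in sham and 5904 to 5972 post-PNX (1 of 7 called lower). The pan-leukocyte list stood at 817 CPM in sham and 862 to 873 post-PNX, and in its defining gene Ptprc (CD45) the log2 fold change was -0.00 (adjusted p = 0.905). In the neutrophil list the sums were 133 to 138 and 146 to 148 CPM, but the median log2 fold change was -0.04. S100a8 and S100a9 were slightly higher (0.15 and 0.16), and Ngp and Camp were lower (-0.33 and -0.56). The sums were 117 to 118 and 127 to 131 CPM in the erythroid list, 134 and 74.2 to 77.5 in the B cell list, and 32.8 to 33.2 and 19.8 to 19.9 in the T cell list. In the neutrophil, erythroid, B cell and T cell lists 0 genes were called. Whether cells other than ECs took part in the changes described below was not tested. In bulk RNA, more cells in division and more of these transcripts per dividing cell cannot be told apart.

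Promoters of 5 of the genes are shown because they were the 3 with the largest and the 2 with the smallest change among those whose mean was at least 100 normalized counts and that had an entry in the promoter table. Genes of the G2 and M phases have been described as carrying CCAAT boxes, bound by the factor NF-Y, and a cell cycle genes homology region (CHR), whose letters are TTTGAA in its G form and TTTAAA in its A form. Sequences are from RefSeq on build GRCm38.p6, the 5′ to 3′ strand of the gene, and end at the RefSeq start of the gene or up to 30 bases inside the deposited transcript. Capitals mark every CCAAT and every CHR of either form, on either strand.
Cenpf, chr1:189688087-189688236, minus strand: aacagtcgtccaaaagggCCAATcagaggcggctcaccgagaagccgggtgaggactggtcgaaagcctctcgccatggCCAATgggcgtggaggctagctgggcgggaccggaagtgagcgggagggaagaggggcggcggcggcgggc
Prc1, chr7:80294326-80294474, plus strand: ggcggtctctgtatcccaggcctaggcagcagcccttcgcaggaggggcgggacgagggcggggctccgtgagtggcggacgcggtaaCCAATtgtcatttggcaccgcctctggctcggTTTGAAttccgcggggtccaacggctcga
Nuf2, chr1:169531465-169531614, minus strand: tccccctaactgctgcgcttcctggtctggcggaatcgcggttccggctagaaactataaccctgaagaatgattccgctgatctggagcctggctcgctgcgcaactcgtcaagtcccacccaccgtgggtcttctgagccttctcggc
Zw10, chr9:49055431-49055580, plus strand: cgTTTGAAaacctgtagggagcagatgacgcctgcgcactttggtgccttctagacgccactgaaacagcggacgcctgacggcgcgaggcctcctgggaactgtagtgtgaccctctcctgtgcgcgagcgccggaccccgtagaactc
Mis18a, chr16:90727372-90727521, minus strand: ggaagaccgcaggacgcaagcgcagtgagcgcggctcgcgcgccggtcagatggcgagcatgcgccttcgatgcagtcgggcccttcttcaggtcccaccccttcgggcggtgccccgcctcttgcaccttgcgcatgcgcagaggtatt

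The printed stretch of Cenpf showed 2 CCAAT boxes, with a CHR of the G form 3 bases after the start and another of the A form 154 bases before it, both outside the stretch. Prc1 showed 1 CCAAT box followed by 1 TTTGAA, while Nuf2 and Mis18a, with a large and a small change, showed none of the motifs. The Zw10 sequence had a TTTGAA far from the start and no CCAAT.

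The change after PNX was in 1 direction for most of the 49 genes. They were called higher in 41 cases, 83.7% of the list, and lower in 0 cases, where 5.9% of all 16208 genes tested were called higher and 1.66% lower. Their median log2 fold change was 2.60, a 6.06-fold rise, beside a median of 0.00 over all genes tested. A log2 fold change above 2 was called in 34 of the 49 genes (2.36% of all genes) and above 3 in 13 (0.888% of all genes). With no minimum size, 46 of the 49 had an adjusted p under 0.01 for a rise (29.3% of all genes) and 1, Pttg1, for a fall (27.8% of all genes), which left Mis18a and Zw10.

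The libraries of a group lay close together. In 47 of the 49 genes both post-PNX libraries were above both sham libraries, which 40.8% of all genes tested also showed. Pttg1 had both post-PNX libraries below (40.5% of all genes), and the groups overlapped in Zw10. The median SD between the libraries of a group, on the log2 scale, was 0.063 in sham and 0.029 post-PNX over the 49 genes. Summed over the list, the level was 569 and 563 CPM in sham and 1634 and 1623 CPM post-PNX, and the median gene stood at 4.19 and 4.14 CPM in sham and 27.0 and 25.3 CPM post-PNX. Standard errors of the log2 fold changes ran from 0.023 in Hjurp, the most counted gene, to 0.22 in Cenpw, the least counted.

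**Figure D1:**
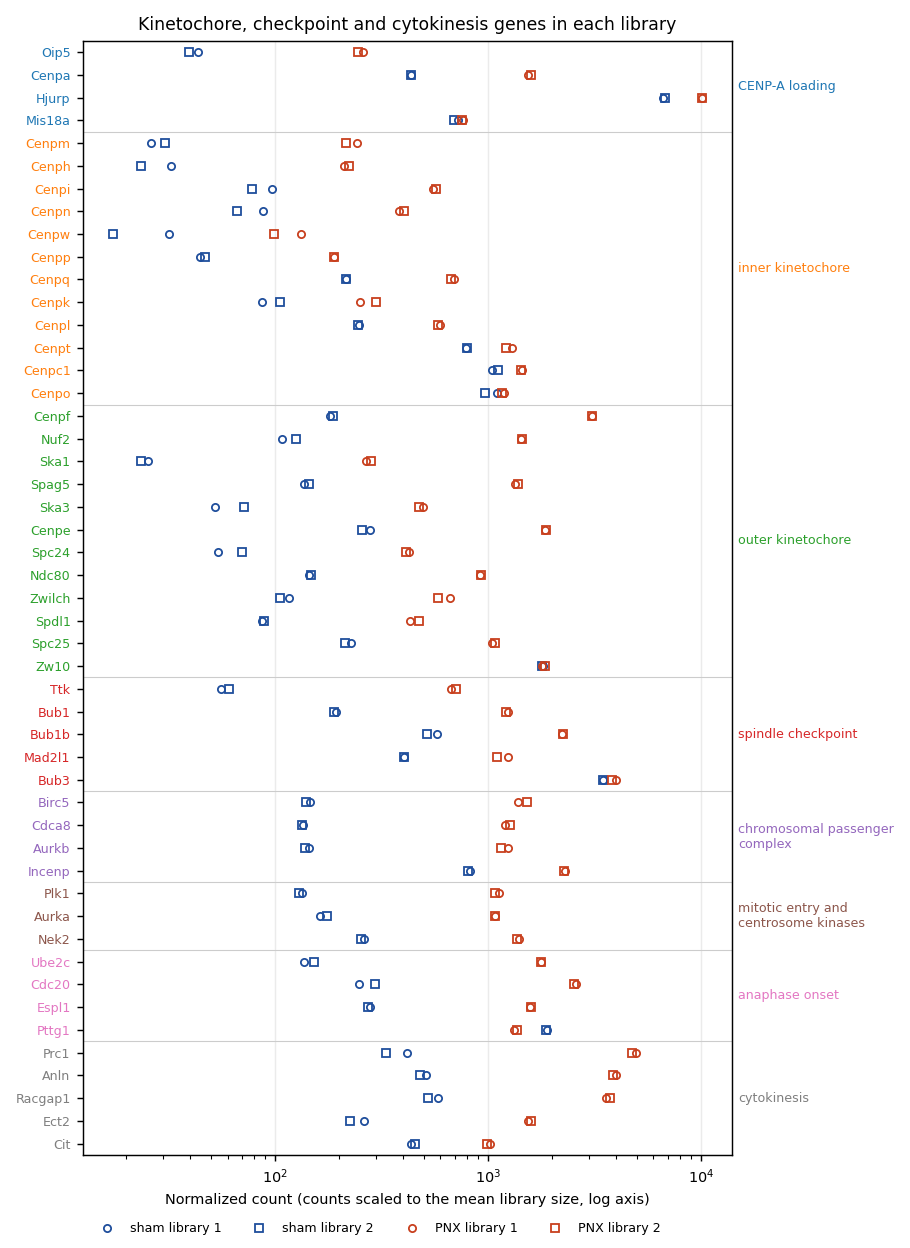
Normalized counts (horizontal, log axis) of the 49 genes in each sham (blue) and post-PNX (red) library, with circles for library 1 and squares for library 2, grouped by role. In 47 genes both red symbols lie to the right of both blue symbols, in Pttg1 they lie to the left, and in Zw10 they overlap.

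The genes that load CENP-A onto centromeres split evenly, with 2 of 4 called higher and a median log2 fold change of 1.22. Cenpa, the centromeric histone H3 variant itself (chromosome 5 from 30666877 to 30674837, mm10), had 434 and 435 normalized counts in the sham libraries and 1543 and 1590 post-PNX. Oip5, a subunit of the Mis18 complex that licenses the loading, had 43.5 and 39.8 counts in sham and 260 and 246 post-PNX. Both rose beyond any overlap of the libraries, with log2 fold changes of 1.85 ± 0.055 (SE) for Cenpa (adjusted p = 4.1e-38) and 2.60 ± 0.15 for Oip5 (adjusted p = 1.4e-23, edgeR).

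Its partner in that complex, Mis18a, had 728 and 693 normalized counts in sham and 764 and 760 post-PNX, with a log2 fold change of 0.10 (adjusted p = 0.134). Hjurp, the chaperone that carries CENP-A, was the most counted of all 49 genes, with 6636 and 6783 counts in sham and 10181 and 10132 post-PNX. Its libraries did not overlap and its adjusted p was 1.5e-32, but the log2 fold change of 0.60 was under the size threshold. The 2 genes of the Mis18 complex were 20.5-fold apart per length in sham (FPKM) and 3.60-fold apart post-PNX.

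The inner kinetochore, a network of CENP proteins that stays on centromeres throughout the cell cycle, had 12 genes in the list, of which 9 were called higher, with a median log2 fold change of 1.86. Its largest rises were in Cenpm (3.02), Cenph (2.94) and Cenpi (2.67), which act in the same subcomplex. Cenpm went from 28.4 ± 3.0 to 229 ± 20 normalized counts, Cenph from 28.0 ± 6.5 to 218 ± 8.3, and Cenpi from 87.7 ± 13.0 to 563 ± 9.3. The fourth gene of that subcomplex, Cenpk, had 87.0 and 106 counts in sham and 251 and 297 post-PNX, a log2 fold change of 1.51.

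The value for Cenpk depended on the transcript. Its most counted transcript is annotated as non-coding, with a log2 ratio of 1.51. Of its coding transcripts, which can share reads with it, the more counted had a log2 ratio of 1.44, from 94 and 105 raw counts in sham to 243 and 253 post-PNX. The less counted, with 30 and 34 in sham and 207 and 197 post-PNX, had a log2 ratio of 2.78. Of the 49 genes, 36 had 1 transcript in the tables and 13 had more.

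Cenpl and Cenpn, which contact the CENP-A nucleosome together, had log2 fold changes of 1.26 ± 0.080 and 2.34 ± 0.12. Cenpp and Cenpq rose by 2.05 and 1.66 on the log2 scale, whereas Cenpo, of the same subcomplex, had 1105 and 975 normalized counts in sham and 1189 and 1164 post-PNX, a log2 fold change of 0.17 (adjusted p = 0.00216). The libraries of Cenpo did not overlap, but the adjusted p rose past 0.01 without sham replicate 2 (0.161, log2 fold change 0.09), without PNX replicate 1 (0.0192), with counts summed over transcripts (0.0167) and with DESeq2 (0.0831).

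The histone-fold proteins Cenpt and Cenpw bind DNA as a pair and recruit the outer kinetochore. Cenpt had 794 and 800 counts in sham and 1293 and 1216 post-PNX, a log2 fold change of 0.66, and Cenpw had 31.7 and 17.3 in sham and 133 and 99.2 post-PNX, a log2 fold change of 2.22. Cenpw had the widest spread between libraries of the same group in the list, and its log2 fold change lay between 1.88 and 2.74 when single libraries were left out. Cenpc1, the DNA-binding scaffold that links both layers, stood at 1083 ± 47 and 1443 ± 2.7, a log2 fold change of 0.42 (adjusted p = 6.7e-12).

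Of the 12 outer kinetochore genes 11 were called higher, and the median log2 fold change was 2.78. Cenpf, a large microtubule-binding protein that is degraded after mitosis (chromosome 1 from 189640606 to 189688107), had 181 and 189 normalized counts in sham and 3091 and 3083 post-PNX. This was the largest change of the 49 genes, a log2 fold change of 4.06 ± 0.056 (adjusted p = 5.4e-56) or 16.7-fold.

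The 4 genes of the NDC80 complex, the rod that grips microtubule ends, all rose. Nuf2 had 109 and 126 counts in sham and 1431 and 1445 post-PNX, a log2 fold change of 3.62 (adjusted p = 2.8e-46). Spc24 (2.76), Ndc80 (2.67) and Spc25 (2.27) followed, with the sham libraries of each between 54.4 and 227 counts and the post-PNX libraries between 414 and 1081. Per length, the highest of the 4 was 3.01-fold above the lowest in sham and 2.16-fold post-PNX.

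Ska1 and Ska3, which keep kinetochores on shortening microtubules, had log2 fold changes of 3.48 and 2.98. Ska1 was the lowest of the 49 genes per length in sham, at 0.124 ± 0.0069 FPKM, and reached 1.41 FPKM post-PNX. Spag5 (astrin), which stabilises attachments, rose from 141 ± 5.6 to 1363 ± 24 normalized counts, a log2 fold change of 3.28. Cenpe, a kinesin motor that moves chromosomes to the spindle equator, rose from 269 ± 16 to 1873 ± 11, a log2 fold change of 2.79.

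Zwilch, Zw10 and Spdl1 bring the motor dynein and checkpoint proteins to unattached kinetochores. Zwilch had 117 and 106 normalized counts in sham and 662 and 582 post-PNX, and Spdl1 had 87.0 and 88.7 in sham and 431 and 477 post-PNX, with log2 fold changes of 2.48 and 2.37. Zw10 had 1825 and 1791 counts in sham and 1801 and 1848 post-PNX. Zw10 was the gene whose groups overlapped, with a log2 fold change of 0.01 ± 0.039 (adjusted p = 0.798). It is also known to act in membrane traffic between the endoplasmic reticulum and the Golgi. Per length, Zw10 stood 17.8-fold above Spdl1 in sham and 3.48-fold above it post-PNX.

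**Figure D2:**
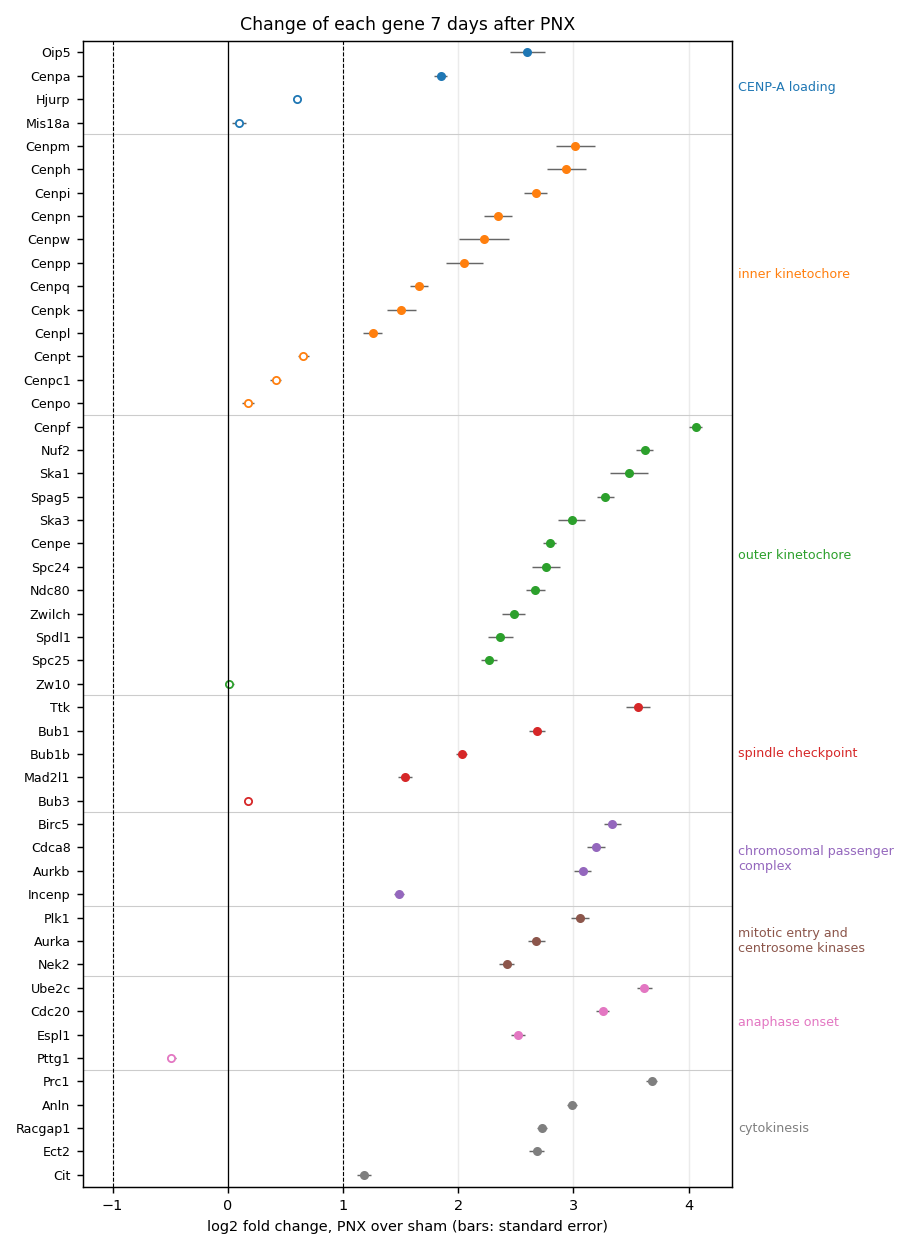
log2 fold change of each gene, post-PNX over sham (horizontal), with bars for the standard error, filled symbols for genes past both thresholds and open symbols for the rest, grouped by role. Cenpf lies farthest right at 4.06, 8 symbols are open, and Pttg1 at -0.49 is the only gene clearly left of 0.

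Of the 5 spindle checkpoint genes 4 were called higher, with a median log2 fold change of 2.03. Ttk, the MPS1 kinase that starts checkpoint signalling, had 56.2 and 61.2 normalized counts in sham and 675 and 710 post-PNX, a log2 fold change of 3.56 (adjusted p = 7.1e-38). Bub1, a kinase at the kinetochore, rose from 192 ± 1.7 to 1230 ± 23 counts, and Bub1b (BubR1), a component of the inhibitor of anaphase, from 548 ± 40 to 2244 ± 19. Their log2 fold changes were 2.68 and 2.03.

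Mad2l1, the MAD2 protein that holds Cdc20 inactive, had 405 and 405 counts in sham and 1244 and 1100 post-PNX, a log2 fold change of 1.54. Bub3, which brings Bub1 and Bub1b to kinetochores, had 3493 and 3462 counts in sham and 4021 and 3838 post-PNX. Its libraries did not overlap, and its log2 fold change was 0.18 ± 0.030 (adjusted p = 5.3e-07), under the size threshold. Bub3 had the highest level per length of the 49 genes in both groups, with 23.0 ± 0.14 FPKM in sham and 26.1 FPKM post-PNX.

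All 4 genes of the chromosomal passenger complex were called higher, with a median log2 fold change of 3.14. Aurkb, its kinase, had 145 and 139 normalized counts in sham and 1248 and 1149 post-PNX, a log2 fold change of 3.08 (adjusted p = 4.4e-42). Birc5 (survivin) and Cdca8 (borealin), which place the complex on centromeres, had log2 fold changes of 3.34 and 3.19. Incenp, the scaffold that the others bind, had 824 and 804 counts in sham and 2303 and 2271 post-PNX, a log2 fold change of 1.49 (adjusted p = 2.6e-38). Incenp was the highest of the 4 per length in sham, 6.04-fold above Birc5, and post-PNX the highest, Cdca8, was 1.79-fold above the lowest, Birc5.

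The mitotic kinases outside that complex were all called higher, 3 of 3. Plk1, which acts from mitotic entry to cytokinesis, had 134 and 130 normalized counts in sham and 1127 and 1076 post-PNX, a log2 fold change of 3.06. Aurka, which matures centrosomes and builds the spindle, went from 170 ± 8.0 to 1083 ± 3.1 (log2 fold change 2.68), and Nek2, which separates centrosomes, from 259 ± 6.9 to 1386 ± 26 (2.42).

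At the onset of anaphase the protease separase is released from its inhibitor securin once the anaphase-promoting complex, activated by Cdc20, marks securin for destruction. Cdc20 had 247 and 295 normalized counts in sham and 2606 and 2537 post-PNX, a log2 fold change of 3.25 (adjusted p = 9.9e-51). Ube2c, the ubiquitin-conjugating enzyme of the anaphase-promoting complex, had 138 and 153 counts in sham and 1772 and 1786 post-PNX, a log2 fold change of 3.62 (adjusted p = 9.6e-49). Espl1, the separase, went from 276 ± 4.1 to 1588 ± 14, a log2 fold change of 2.52.

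Pttg1, the securin (chromosome 11 from 43420244 to 43427463), went the other way. It had 1904 and 1878 normalized counts in the sham libraries and 1324 and 1370 post-PNX, without overlap, a log2 fold change of -0.49 ± 0.041 (adjusted p = 2.5e-16) that was under the size threshold. In sham its level per length was the second of the 49, at 15.2 ± 0.15 FPKM, and post-PNX it was 10.9 FPKM. Both its transcripts gave the same log2 ratio, -0.49.

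All 5 cytokinesis genes were called higher, with a median log2 fold change of 2.72. Prc1, which bundles the microtubules of the central spindle (chromosome 7 from 80294445 to 80316259), had 419 and 334 normalized counts in sham and 4953 and 4772 post-PNX, a log2 fold change of 3.68 ± 0.048 (adjusted p = 1.3e-57). Anln (anillin), the scaffold of the contractile ring, rose from 496 ± 23 to 3934 ± 112 counts, a log2 fold change of 2.98. Racgap1, of the centralspindlin complex, and Ect2, the exchange factor that it recruits to activate RhoA, had log2 fold changes of 2.72 and 2.68.

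Cit, the citron kinase of the late midbody, had 435 and 458 counts in sham and 1025 and 996 post-PNX. Its log2 fold change of 1.18 was the smallest of the 41 called, followed by Cenpl at 1.26. Tested against a log2 fold change of up to 1 (glmTreat), Cit reached an adjusted p of 0.0123 and was no longer called. The nearest genes below the size threshold were Cenpt (0.66) and Hjurp (0.60).

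Levels per length set the genes that were not called apart in sham. FPKM, the deposited count scaled by transcript length and library total, spanned from 0.124 in Ska1 to 23.0 in Bub3 in sham, 185-fold, and from 1.05 in Cenpw to 26.1 in Bub3 post-PNX, 24.9-fold. The SD of log2 FPKM over the 49 genes was 1.70 in sham and 1.12 post-PNX. All 8 genes that were not called (Bub3, Pttg1, Hjurp, Zw10, Mis18a, Cenpt, Cenpc1 and Cenpo) were among the 10 with the highest FPKM in sham, together with Cenpa and Incenp. This grouping was seen in the data and carries no test, and the change and the sham level share the same sham libraries.

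The lowest sham level among the 8 was that of Cenpo, at 3.25 FPKM. In sham 27 of the 49 genes were under 1 FPKM, and post-PNX 0 were. The median of the 49 was 0.901 FPKM in sham and 5.81 FPKM post-PNX, while the median of all genes with counts was 3.46 and 3.55 FPKM. Post-PNX the highest were Bub3 and Ube2c (both 26.1 FPKM), Prc1 (22.0), Cdc20 (19.7), Hjurp and Racgap1 (both 16.4), of which Bub3 and Hjurp were the ones not called. Bub3 and Ube2c, neighbours in that order, differed by less than the SD of Bub3, as Hjurp and Racgap1 did by less than the SD of Racgap1.

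**Figure D3:**
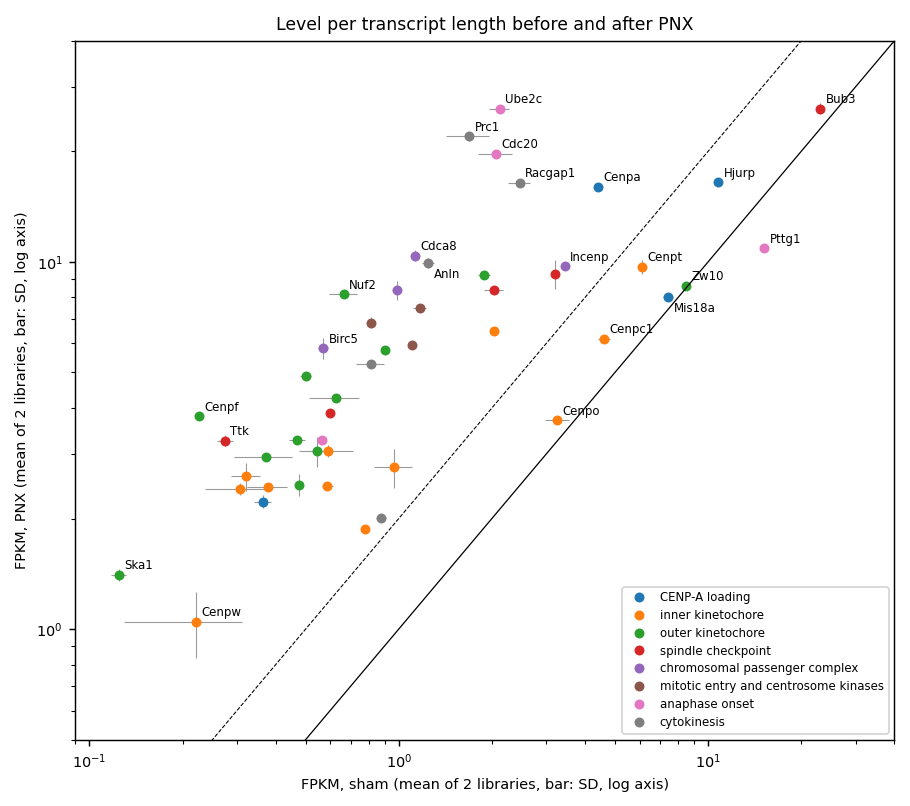
FPKM of each gene in sham (horizontal) and post-PNX (vertical), both log axes, as means of 2 libraries with SD bars, coloured by role, with a solid line at equal levels and a dashed line at a log2 ratio of 1. The 8 genes below the dashed line all lie at or above 3.25 FPKM in sham, and the 27 genes under 1 FPKM in sham all lie above the dashed line.

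The sequences printed above were read beside those of all genes. RefSeq windows from 250 bases before to 50 bases after the start were found for 44 of the 49 genes, 49 windows in all since some genes have several starts, and Aurkb, Incenp, Ska1, Spc24 and Zwilch had no entry. Both strands were searched for CCAAT and for both CHR forms. The A form reads the same on both strands, and a CCAAT can share at most 1 base with a CHR.

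A CCAAT was in 73.5% of the 49 windows and in 37.4% of all 32851 windows of the table, and 2 or more were in 40.8% and 11.7%. TTTGAA was in 59.2% against 17.9%, and TTTAAA in 20.4% against 13.2%. A CCAAT together with either CHR form was in 55.1% of the windows of these genes, in 10.7% of all windows and in 7.8% of the windows of the genes tested here. The median GC content was 58.7% in the windows of these genes, 52.7% in all windows and 60.0% in those of the genes tested.

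The motifs also lay near the start. Of 44 CHR matches in these genes, 75.0% began within 50 bases of the start on either side, against 25.1% of the matches in all windows, and of 67 CCAAT matches, 41.8% did so against 28.2%. The median position was 57 bases before the start for CCAAT and 2 bases before it for the CHR. Ube2c, with a log2 fold change of 3.62, had 6 CCAAT matches and a TTTGAA.

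Between called and not called genes the picture was mixed. CCAAT was in 80.0% of the 40 windows of called genes and in 44.4% of the 9 windows of genes not called, and a CHR form in 67.5% and 66.7%. These windows came from 36 called genes and 8 genes not called, and windows of the same gene are not independent. Both windows of Bub3, which was not called, held a CCAAT, as did every window of the called genes Cenpk, Ect2 and Prc1. Some windows lay wholly inside the gene's coordinates, so that the outer end of the gene was not searched. Among genes not called these were Cenpc1, Cenpo, Cenpt (window to 105852258, gene to 105855086) and Pttg1 (window to 43426231, gene to 43427463). Called genes such as Aurka, Cenpm, Cit and Ect2 had such windows too. A window held neither motif in 7 genes, namely Cenpo, Cenpp, Cit, Mad2l1, Mis18a, Nuf2 and Pttg1, of which Cenpp, Cit, Mad2l1 and Nuf2 were called higher. These matches describe the letters in the windows, and binding was not measured.

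**Figure D4:**
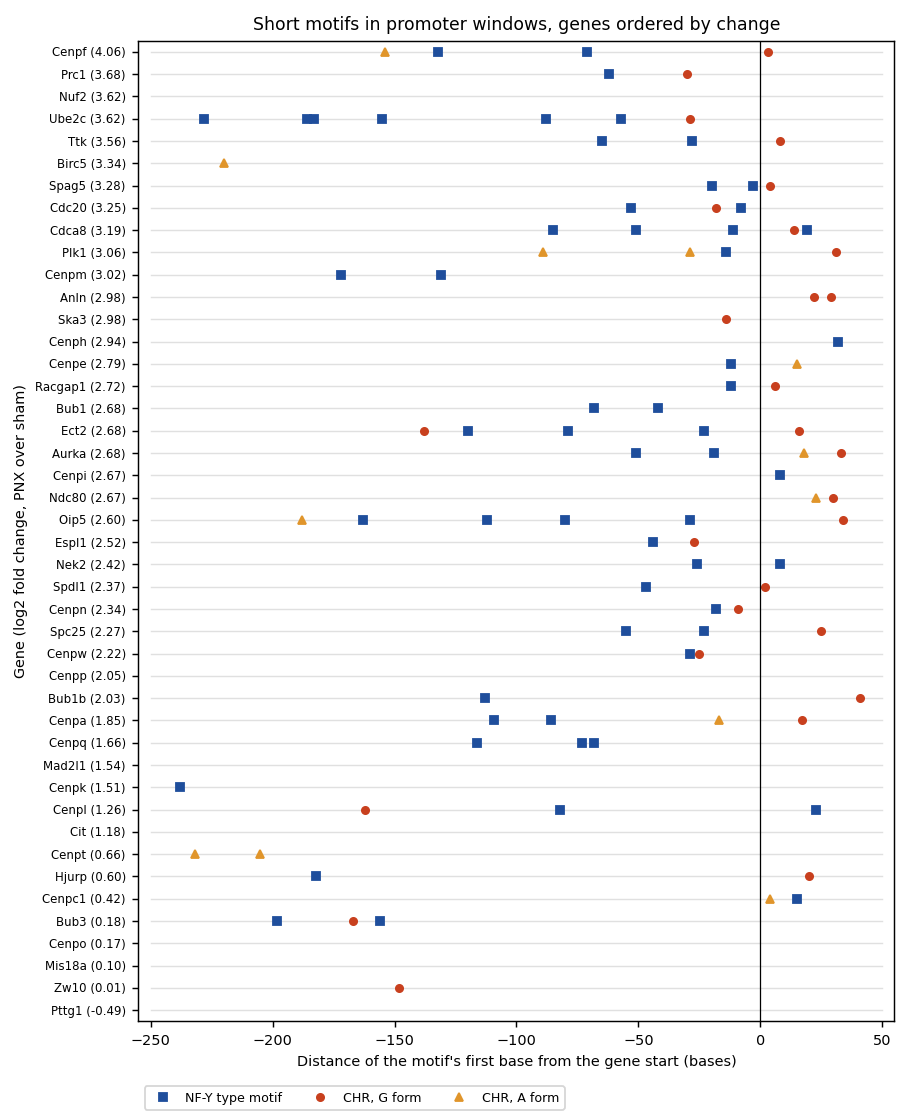
Position of each motif match (horizontal, bases from the RefSeq start at 0) in the promoter windows of the 44 genes with an entry, ordered from the largest to the smallest log2 fold change, which is printed after each name. Squares are CCAAT, circles TTTGAA and triangles TTTAAA on either strand, and 75.0% of the circles and triangles lie within 50 bases of the start.

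Reads from overlapping genes could not always be assigned. The library kit kept strand, but whether strand was used in counting was not given in the sources used here, so that reads of a gene and of its opposite-strand partner cannot be told apart. Of the 49 genes 14 shared exon bases with a gene on the other strand in the GENCODE annotation of the same build. Prc1 shared 911 bases with Rccd1, which had 402 and 350 mean normalized counts in sham and post-PNX. Prc1 itself had 377 in sham, below Rccd1, and 4863 post-PNX, above it. Some other called genes had partners with more counts in both groups. Cdc20 had 271 counts in sham and Elovl1 9148, and Ska3 had 62.0 and Sap18 2632. The log2 fold changes of Elovl1 and Sap18 were -0.04 and 0.03. Cenpo shared 1380 bases with Adcy3, which had a log2 fold change of -0.01 and more counts than Cenpo in both groups (1958 and 1948).

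In other pairs both partners moved. Oip5 shared 172 bases with Nusap1, a spindle gene with a log2 fold change of 2.99 and 2101 mean counts post-PNX against 253 for Oip5. Zwilch shared 254 bases with Lctl, which went from 21.0 to 111 counts, a log2 fold change of 2.40. Cenpt, by contrast, shared 8 bases with Tsnaxip1, which had a log2 fold change of -1.07.

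Other genes of the same processes were counted from 4 lists, to be read beside the 5.9% of all genes tested that were called higher. Of 23 other kinetochore and checkpoint genes 14 were called higher, with a median log2 fold change of 1.41. The largest rise was in Sgol1, shugoshin, which protects centromeric cohesion: it had 67.9 and 66.3 normalized counts in sham and 571 and 559 post-PNX, a log2 fold change of 3.07. Cenpb, which binds a repeat of centromeric DNA, had the highest level per length in that list post-PNX, 62.2 FPKM, with a log2 fold change of 0.08.

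Of 15 other spindle assembly genes 11 were called higher, with a median log2 fold change of 2.90. Ckap2, a microtubule-associated protein, had 86.1 and 96.8 counts in sham and 1853 and 1877 post-PNX, a log2 fold change of 4.35 (adjusted p = 4.9e-51). Ranbp1, a regulator of the GTPase Ran, was the highest of the list per length post-PNX at 41.8 FPKM, with a log2 fold change of 0.45.

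Of 17 subunits and regulators of the anaphase-promoting complex 2 were called higher, Fbxo5, its inhibitor EMI1 (1.46), and Ube2s, which extends ubiquitin chains (1.02). The median log2 fold change of the 17 was 0.12. Anapc5, a subunit, was the highest per length post-PNX, at 60.8 FPKM with a log2 fold change of 0.01 (adjusted p = 0.783). Cdc20 and Ube2c, which act with this complex, had log2 fold changes of 3.25 and 3.62.

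Of 18 other cytokinesis genes tested 6 were called higher, with a median log2 fold change of 0.13. Iqgap3, a scaffold protein, had 192 and 179 counts in sham and 2526 and 2699 post-PNX, a log2 fold change of 3.81. Rhoa, the GTPase that drives ring contraction, was the highest per length post-PNX, at 221 FPKM, with a log2 fold change of 0.11. Over the 4 lists 33 of 73 genes tested (45.2%) were called higher and 0 lower, where 5.9% and 1.66% of all genes tested were.

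**Figure D5:**
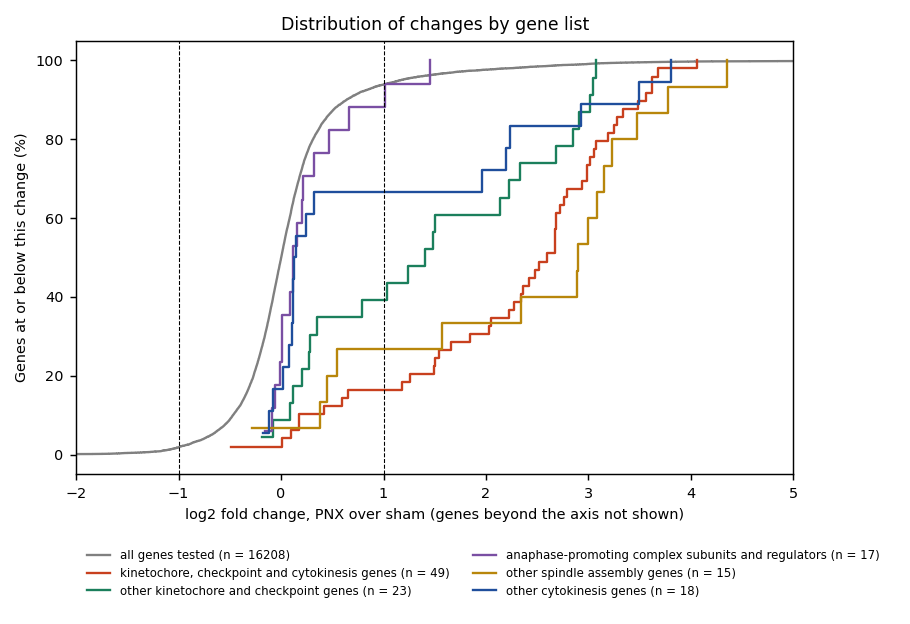
Share of genes (vertical, %) at or below each log2 fold change, post-PNX over sham (horizontal), for the 49 genes, the 4 lists of related genes and all genes tested, with dashed lines at the size thresholds. The 49 genes and the other spindle assembly genes cross 50% at 2.60 and 2.90, and the anaphase-promoting complex and other cytokinesis lists at 0.12 and 0.13, near the median of all genes at 0.00. In these last 2 lists 2 of 17 and 6 of 18 genes were nonetheless called higher (5.9% of all genes).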

How the data were processed

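RNA of bead-selected lung ECs was measured in 2 sham and 2 post-PNX libraries. Per the labels and the paper's methods, the authors used a stranded mRNA kit with paired ends and aligned reads to mm10. The submitters' processing notes name STAR, without a version, and the counting program is not given in the sources used here. For each library the authors deposited whole-number counts per RefSeq transcript. They also deposited FPKM, used here for levels per length, and TPM, which was not used. Groups came from the treatment label.

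For each symbol the transcript with the most counts was kept. In R 4.3.3, edgeR 4.0.16 was run on these counts after filterByExpr (16208 genes) and TMM normalization, with the quasi-likelihood F test of post-PNX against sham and no covariates. Benjamini-Hochberg adjustment covered all genes tested, and calls needed an adjusted p under 0.01 and a size beyond 1 in log2 fold change. SE is the log2 fold change over the root of F. A count of 3, the floor, is 0.0589 to 0.0725 CPM in these libraries and covers counting error only. Over all genes, replicates differed by somewhat more than sampling noise (mean chi-square per gene 1.76 in sham and 1.52 post-PNX). Between a sham and a post-PNX library the same measure was 133 (replicates 1) and 118 (replicates 2). How much of the spread between replicates came from differences between mice was not tested. The fit was tested on simulated data.

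The members, the lists and the rule for naming genes were chosen with earlier results of these data known. All 49 were named, and of each related list the largest rise and the highest FPKM post-PNX. Of the markers, Pecam1, Cdh5, Ptprc and the largest change were named. Diaph3 and Trbc2 were not found in the tables, and Aurkc was not tested. Nusap1, Ube2s, Eng, Emcn, Pdgfra, Mertk, S100a8, S100a9, Ngp, Camp and the overlapping partners were named after their values were seen. Alternatives were DESeq2 1.42.0, other scalings and filters, glmTreat, summed transcripts, other thresholds, a replicate block and leaving out each library. Protein sequences were not used here.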

Additional observations from a re-analysis of the deposited data

How the results depend on the processing

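The number of the 49 genes called higher was 41 under 12 of the 14 alternatives, 40 with glmTreat (which lost Cit) and 46 with no size threshold. With no size threshold 1 of the 49 was called lower, and for the related lists 54 genes were called higher and 5 lower. Over all genes, 957 were called higher and 269 lower. This became 604 and 39 with glmTreat and 4745 and 4513 with no size threshold, 160 lower with a mean of at least 50 counts, and 84 lower when libraries were scaled to the endothelial markers. The last scaling moved the median of all genes by 0.26 on the log2 scale and the share of higher among all calls from 78.1% to 94.1%. It raised the median of the 49 genes from 2.60 to 2.86, and gave Zw10 0.27, Mis18a 0.36 and Pttg1 -0.23. With that scaling Zw10 (adjusted p = 1.5e-06) and Mis18a (adjusted p = 7.6e-06, edgeR) also had an adjusted p under 0.01 for a rise. Leaving out 1 library gave medians of the 49 between 2.54 and 2.64, and moved no fold change of the 49 by more than 1.44-fold (Cenpw). Zw10 lay between -0.0051 (without PNX replicate 2) and 0.033 and reversed also without sham replicate 2 (-0.00059), all within its standard error. The adjusted p of Cenpo for any change ranged from 3.3e-07, with endothelial marker scaling, to 0.161, without sham replicate 2, and was 1 with glmTreat, which tests against the size threshold. Replicate numbers name different mice and did not pair the libraries (correlation of within-group differences 0.030). With the replicate block, 41 of the 49 genes were called higher, as without it, and the median was 2.60. The size of an adjusted p depended strongly on the setting. In Cenpa, for example, it was 4.1e-38 in the main fit, 9.6e-230 with no filter and 1.0e-13 with summed transcripts (edgeR). The log2 fold change of Cenpa was 1.85 in each of these fits. Depth did not keep any of the 49 from being tested.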
